A study of Arabidopsis thaliana with 6 samples.

Results

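A set of 35 loci of Arabidopsis thaliana, of 32834 in the count table, was nearly or fully without reads in dexamethasone-treated wild-type seedlings and had reads in all 4 libraries of dexamethasone-treated transgenic seedlings. A locus was taken when the 2 WT libraries together held at most 3 counts and each of the 4 transgenic libraries held at least 10. Plastid-encoded and mitochondrion-encoded loci were left out, as were 13 named loci, among them the triterpene synthase PEN3, seed albumins, iron-deficiency regulators and plant defensins. Of those 13, PEN3 and the albumin SESA5 met the count limits, so 37 loci passed before the exclusions. The level in the transgenic libraries and in WT chose the loci, so the distance between them is given as a description, without a test. The contrast of MIF_3 with MIF_1 and the neighbouring loci were tested. They were not used in the choice, except that the minimum of 10 counts acts on each transgenic library. The gene lists were also tested, but the defence, iron-deficiency and triterpene lists hold named exclusions of the rule.

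The libraries came from whole Col-0 seedlings grown for 7 days on medium with 1% sucrose and 10 µM dexamethasone, in 16 h of light per day, after 3 days of cold. MIF_3 and MIF_1 (2 libraries each) carried the inducible construct pTA7002-Dexp:Myc-MIF, and the WT group (2 libraries) carried none. The series title concerns an F-box protein that controls the organellar editing factor MORF2, and the comparison asks what MIF expression did to transcript levels. The labels do not say what the numbers in MIF_3 and MIF_1 stand for, whether replicates were separate cultures, or which locus MIF is, so the p-values measure only the spread between these libraries and the transgene itself was not analysed here. In the pTA7002 system a chimeric activator, built from the GAL4 DNA-binding domain, a viral activation domain and the hormone-binding domain of the glucocorticoid receptor, drives the transgene once dexamethasone is present. Seedlings with the vector alone and seedlings without dexamethasone were not analysed here, so MIF and the activator cannot be told apart.

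Many plant genes have no stable transcript in a growing seedling because they belong to another organ or stage, or because they respond to a pathogen, to heat or to a failing organelle. F-box proteins choose targets for ubiquitin-dependent degradation, and editing factors of the MORF family take part in C-to-U editing of plastid and mitochondrial transcripts. Signals from impaired organelles reach the nucleus and change transcription there, which is called retrograde signalling. In mitochondrial retrograde signalling, membrane-bound NAC transcription factors bind a short promoter element, the mitochondrial dysfunction motif.

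The libraries held 24175475 and 24698636 counts in MIF_3, 22403469 and 22827857 in MIF_1, and 21404582 and 18262579 in WT, so the WT libraries were the shallowest. The 3 counts allowed over both WT libraries correspond to 0.0821 CPM (TMM-scaled counts-per-million). The 4 leaf photosynthesis markers and all 10 root markers passed the low-count filter. In the mean of MIF_3 and MIF_1 against WT the 4 leaf markers fell (median log2 fold change -0.61) and 1 root marker rose (median 0.28 over the 10), and the part of these organ shares in the members' levels was not tested. Summed counts of 12 seed and embryo markers were 26 and 34 in MIF_3, 41 and 303 in MIF_1, and 23 and 13 in WT. In this list MIF_1 replicate 2 stood apart, with 146 counts of the cruciferin CRA1 and 66 of the oleosin OLEO1. The list leaves out the seed albumins, which are named exclusions. Of these, SESA2 had 882 and 226 counts in MIF_3, 236 and 312 in MIF_1, and 4 and 2 in WT. SESA5 had 337 and 76 in MIF_3, 113 and 60 in MIF_1, and none in WT. SESA1, SESA3 and SESA4 had at most 8 counts in any library. The part of these transcripts in any member's count was not tested. In bulk RNA, more cells of a type and more transcript per cell cannot be told apart.

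Summed over the 35 loci, MIF_3 held 3701 and 1600 counts, MIF_1 held 3889 and 4295, and WT held 19 in each of its libraries. The median locus had 30 and 28 counts in MIF_3, 53 and 48 in MIF_1, and 0 in both WT libraries. No WT count came above 3 and no transgenic count below 10, which the rule fixes. In WT, 14 loci had no count in either library, 8 had 1 count in all, 9 had 2 and 4 had 3. Across the table, 11205 loci had at most 3 counts in WT, and 2236 of them had at least 1 count in a transgenic library. A further 61 loci passed the limits in MIF_1 but not in both MIF_3 libraries, and 27 passed in MIF_3 but not in both MIF_1 libraries. The reverse pattern, at least 10 counts in each WT library and at most 3 in each transgenic set, held for 1 locus, the leucine-rich repeat kinase AT1G07550, with 0 and 2 counts in MIF_3, 0 and 3 in MIF_1, and 13 and 10 in WT.

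**Figure D1:**
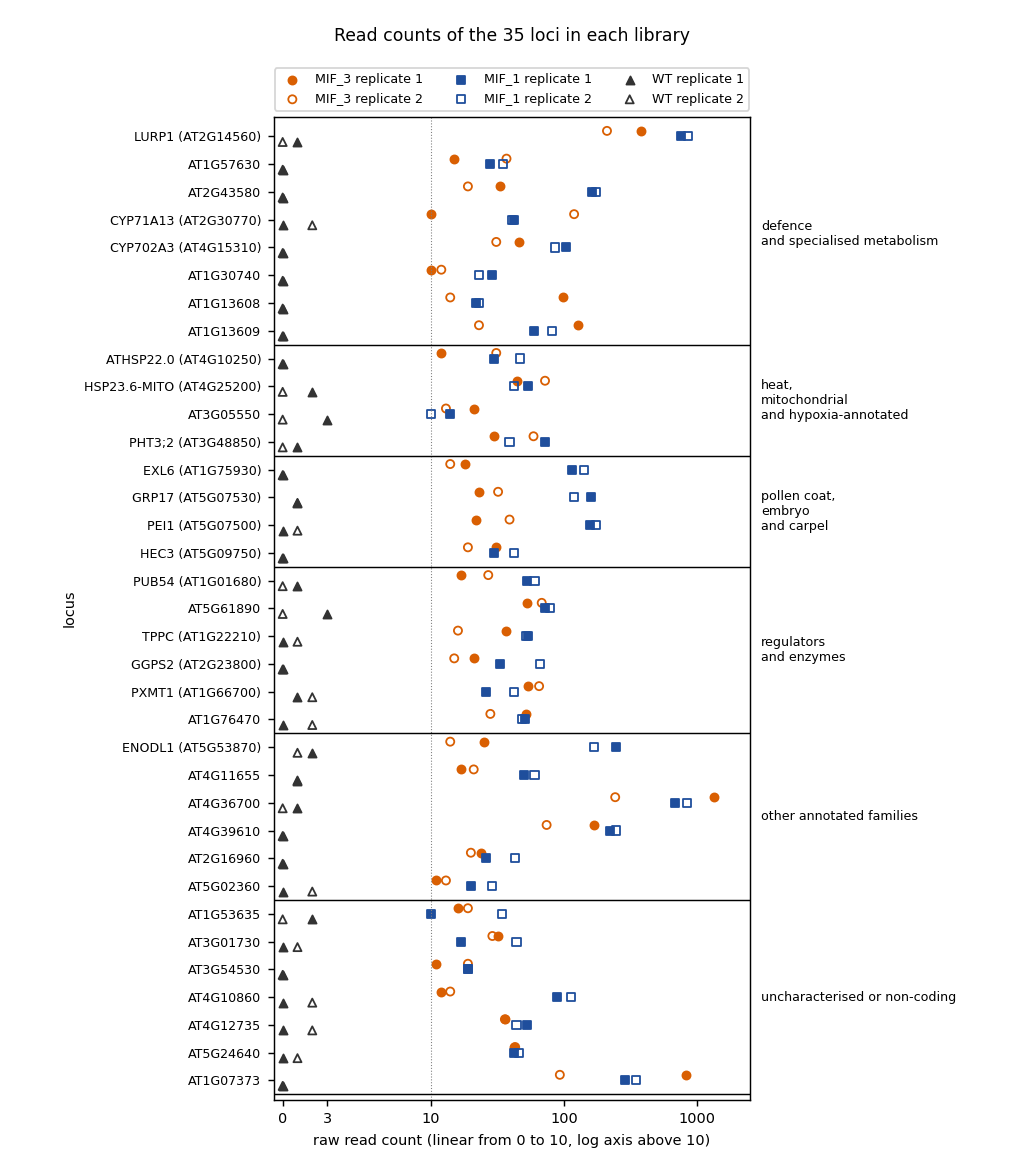
Raw read count of each of the 35 loci in every library, grouped by chosen role. The axis is linear from 0 to 10 and logarithmic above 10. Orange circles are MIF_3, blue squares MIF_1 and black triangles WT; filled symbols are replicate 1. All WT points lie at 0 to 3 and all transgenic points at 10 to 1339, and the circles of AT4G36700, AT1G07373 and the defensin-like loci AT1G13608 and AT1G13609 are spread widely.

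Fold differences from WT were taken from pooled counts per pooled library size. They ranged from 5.34 to 1151 in MIF_3 (median 26.2) and from 6.10 to 1225 in MIF_1 (median 38.4). For the 14 loci without a WT count these are lower bounds, set against a floor of 3 counts over both WT libraries. Intervals and floors cover counting error only. Levels were low even where the loci were on. Per kilobase of exon, the mean transgenic level of the 35 loci had a median of 1.72 CPM per kb (range 0.437 to 23.9), against 8.55 CPM per kb for the median tested protein-coding locus, and 3 loci lay above that value. The same 3 loci, AT4G36700, LURP1 and AT1G07373, held 50.7% of the transgenic counts of the set.

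AT4G36700, the most abundant member, encodes a protein of the RmlC-like cupin superfamily, the fold of the seed globulins and germins. It had 1339 and 242 counts in MIF_3, 685 and 833 in MIF_1, and 1 and 0 in WT. Pooled, this was 1151 times the WT level in MIF_3 (95% interval 206 to 45508) and 1158 times in MIF_1 (208 to 45768), wide because WT holds a single count. Replicate 1 of MIF_3 was above both MIF_1 libraries and replicate 2 below them. The AT4G39610 protein shares the DUF617 domain of MIZU-KUSSEI1, a protein needed for root hydrotropism. It had 168 and 74 counts in MIF_3, 222 and 244 in MIF_1, and none in WT, at least 58.7 times the floor in MIF_3 and at least 118 times in MIF_1. The long non-coding RNA AT1G07373 had 819 and 93 counts in MIF_3, 287 and 345 in MIF_1, and none in WT. It was the only member that is not annotated as protein-coding, and its per-kilobase level, 23.9 CPM per kb, was the highest of the set.

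The members were sorted into chosen roles, and the share of each role over all tested loci was not counted. By this sorting, defence and specialised metabolism was the largest group, with 8 loci. LURP1, a gene first described by its late induction during oomycete infection, had 375 and 210 counts in MIF_3, 756 and 850 in MIF_1, and 1 and 0 in WT. The chitinase-family locus AT2G43580, whose relatives cut the chitin of fungal walls, had 33 and 19 counts in MIF_3, 163 and 175 in MIF_1, and none in WT. In both genes the 2 MIF_1 libraries lay above the 2 MIF_3 libraries. CYP71A13, which makes indole-3-acetonitrile on the route to the phytoalexin camalexin, had 10 and 119 counts in MIF_3, 42 and 41 in MIF_1, and 0 and 2 in WT. Here the MIF_3 libraries enclosed the MIF_1 libraries. CYP702A3, a cytochrome P450, had 46 and 31 counts in MIF_3, 103 and 85 in MIF_1, and none in WT. The berberine-bridge-type oxidase AT1G30740 and the Toll-interleukin receptor (TIR) domain locus AT1G57630, a domain of plant immune receptors, had 10 to 37 counts in every transgenic library and none in WT.

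The defensin-like loci AT1G13608 and AT1G13609, which encode small cysteine-rich peptides, are neighbours on one strand of chromosome 1, 269 bp apart. AT1G13608 had 98 and 14 counts in MIF_3, 22 and 23 in MIF_1, and none in WT. AT1G13609 had 127 and 23 counts in MIF_3, 60 and 81 in MIF_1, and none in WT. Both were highest in MIF_3 replicate 1, and both had their MIF_1 values inside the range of MIF_3. Their genomic sequences were 76.6% identical over the aligned stretch, with a longest shared run of 17 bp, shorter than a usual sequencing read. The next defensin-like locus, 350 bp on the other side of AT1G13608, is AT1G13607, which had 41 and 0 counts in MIF_3, 2 and 0 in MIF_1, and none in WT.

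A group of 4 loci is linked to heat, mitochondria or hypoxia, by annotation or, for PHT3;2, by its known place. HSP23.6-MITO, a small heat shock protein of the mitochondrion, had 44 and 72 counts in MIF_3, 54 and 42 in MIF_1, and 2 and 0 in WT. PHT3;2, a phosphate carrier of the inner mitochondrial membrane, had 30 and 59 counts in MIF_3, 72 and 39 in MIF_1, and 1 and 0 in WT. The ranges of both sets overlapped in each. ATHSP22.0, a small heat shock protein of the endomembrane system, had 12 and 31 counts in MIF_3, 30 and 47 in MIF_1, and none in WT. AT3G05550, of the hypoxia-responsive family, had the lowest fold in MIF_1, 6.10 times WT (95% interval 1.85 to 31.7), with 21 and 13 counts in MIF_3, 14 and 10 in MIF_1, and 3 and 0 in WT.

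Genes known from reproductive organs and embryos made up 4 loci. EXL6, an extracellular lipase of the pollen coat, had 18 and 14 counts in MIF_3, 115 and 142 in MIF_1, and none in WT. GRP17, an oleosin-domain protein of the pollen coat that helps pollen take up water on the stigma, had 23 and 32 counts in MIF_3, 159 and 118 in MIF_1, and 1 in each WT library. PEI1, a zinc-finger protein described as needed for embryo development, had 22 and 39 counts in MIF_3, 157 and 174 in MIF_1, and 0 and 1 in WT. In these 3 genes every MIF_1 library was well above both MIF_3 libraries. HEC3, a basic helix-loop-helix factor of carpel and transmitting-tract development, had 31 and 19 counts in MIF_3, 30 and 42 in MIF_1, and none in WT.

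Markers of those organs were counted in the same libraries. Of 7 anther and pollen markers, none passed the low-count filter, and their summed counts were 10 and 5 in MIF_3, 0 and 10 in MIF_1, and 6 and 5 in WT. VGD1, MGH3, MS1 and DYT1 had no count in any library. Of 7 flower markers, 2 were tested and both, SEP3 and SEP1, fell in the mean of MIF_3 and MIF_1 against WT, with log2 fold changes of -1.01 ± 0.28 and -2.49 ± 0.63 (SE; adjusted p = 0.031 and 0.021, edgeR). The 4 endosperm markers had 8 and 2 counts in MIF_3, 22 and 14 in MIF_1, and none in WT, all from FWA and YUC10. SEP3 had 51 and 50 counts in MIF_3, 36 and 33 in MIF_1, and 72 and 54 in WT. Among the 12 seed and embryo markers, whose sums are given above, ABI3, a regulator of seed maturation, had no count in MIF_3, 25 and 9 in MIF_1, and none in WT, and CRA1 had 9 and 8 in MIF_3, 0 and 146 in MIF_1, and 5 and 4 in WT. Of these markers 1 was tested, GEA6, and it was not called. The summed count of the seed list was highest in MIF_1 replicate 2, with 303 against 41 in MIF_1 replicate 1. That of the endosperm list was highest in MIF_1 replicate 1. EXL6, GRP17 and PEI1 were high in both MIF_1 libraries. The part of the marker transcripts in those levels was not tested. The neighbours of the pollen-coat genes stayed low. GRP14, GRP16 and GRP18, in the same glycine-rich cluster as GRP17, had at most 7 counts in any library. ATA27, 1260 bp from EXL6, had at most 6. AT1G75920, 903 bp on the other side of EXL6, had 10 and 4 counts in MIF_3, 8 and 6 in MIF_1, and 11 and 0 in WT.

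The remaining named members were regulators and enzymes. AT5G61890, of the AP2/ERF transcription factor family, had 53 and 68 counts in MIF_3, 72 and 79 in MIF_1, and 3 and 0 in WT, one of the 4 loci at the WT limit. PUB54, a U-box ubiquitin ligase, had 17 and 27 counts in MIF_3, 53 and 60 in MIF_1, and 1 and 0 in WT. TPPC, a trehalose-6-phosphate phosphatase, had 37 and 16 counts in MIF_3, 54 and 52 in MIF_1, and 0 and 1 in WT. In both, MIF_1 lay above MIF_3 without overlap, but the differences were not called (adjusted p = 0.19 and 0.37, edgeR). GGPS2, a geranylgeranyl diphosphate synthase, had 21 and 15 counts in MIF_3, 33 and 66 in MIF_1, and none in WT. The NAD(P)-binding protein AT1G76470 had 52 and 28 counts in MIF_3, 51 and 48 in MIF_1, and 0 and 2 in WT. Its transgenic sets overlapped. PXMT1, a methyltransferase, was the 1 member whose MIF_3 libraries, with 54 and 65 counts, both lay above those of MIF_1, with 26 and 42. WT had 1 and 2. ENODL1, an early nodulin-like protein with a plastocyanin-like domain, had 25 and 14 counts in MIF_3, 246 and 168 in MIF_1, and 2 and 1 in WT. AT4G11655 (UPF0497 family), AT2G16960 (ARM repeats) and AT5G02360 (DC1 domain) had 11 to 60 counts in each transgenic library.

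No function is annotated for 6 loci. AT4G10860 had 12 and 14 counts in MIF_3, 89 and 112 in MIF_1, and 0 and 2 in WT, with no overlap between the transgenic sets. AT5G24640 was the most even member, with 42 and 43 counts in MIF_3, 42 and 46 in MIF_1, and 0 and 1 in WT. AT4G12735 had 36 in both MIF_3 libraries, 53 and 44 in MIF_1, and 0 and 2 in WT. AT1G53635, AT3G01730 and AT3G54530 had 10 to 44 counts in each transgenic library. In all, 20 of the 35 loci have no gene symbol in the reference.

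At the limits of the rule, AT1G30740 (10 and 12 counts in MIF_3), AT1G53635 (10 in MIF_1 replicate 1) and CYP71A13 (10 in MIF_3 replicate 1) lay just inside the transgenic minimum, and PXMT1 lay at the WT maximum of 3. Just outside were AT1G26390, a berberine-bridge-type locus with 40 and 112 counts in MIF_3, 29 and 60 in MIF_1, and 3 and 1 in WT, and the non-coding AT1G56165, with 28 and 26 counts in MIF_3, 31 and 21 in MIF_1, and 2 in each WT library. AT1G54280 and NOGC1 missed the transgenic minimum with 9 counts in MIF_3 replicate 2. Counts just inside and just outside were thus nearly the same, and the set has no natural edge. A limit of 1 WT count left 22 loci and a limit of 6 gave 65.

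MIF_3 and MIF_1 were compared with edgeR's quasi-likelihood test over 20438 loci, with Benjamini-Hochberg adjustment over all of them. All 35 loci passed the low-count filter. Of these, 7 fell in MIF_3 against MIF_1 (20%, against 1.29% of all tested loci lower and 1.76% in either direction), 0 rose (0.475% of all tested loci) and 28 were not called. At an unadjusted p below 0.05, 12 were lower and 0 higher, and DESeq2 called 0 higher. The median log2 fold change of the 35 was -0.59, against 0.01 over all tested loci, and 28 of the 35 were negative, against 48.5% of all tested loci. The minimum of 10 raw counts bounds how low a member can be in either set, and because the MIF_3 libraries are deeper it is a lower CPM there. The part of this limit in the direction was not tested. In CPM, MIF_1 lay wholly above MIF_3 for 22 loci (23.9% of all tested loci), MIF_3 wholly above MIF_1 for 1 (23.5% of all tested loci), and the sets overlapped for 12.

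ENODL1 fell by 3.47 ± 0.37 on the log2 scale in MIF_3 against MIF_1 (SE, n = 2 against 2; adjusted p = 0.0024, edgeR). EXL6 fell by 3.06 ± 0.40 (adjusted p = 0.0085, edgeR), AT4G10860 fell by 3.003 ± 0.49 (adjusted p = 0.018, edgeR) and the chitinase AT2G43580 fell by 2.76 ± 0.36 (adjusted p = 0.0086, edgeR). PEI1 fell by 2.50 ± 0.38 (adjusted p = 0.012, edgeR), GRP17 fell by 2.39 ± 0.36 (adjusted p = 0.011, edgeR) and LURP1 fell by 1.53 ± 0.23 (adjusted p = 0.012, edgeR). Thus 3 of the 4 pollen-coat, embryo and carpel loci were called, and 2 of the 8 defence loci. Among the 4 heat, mitochondrial and hypoxia loci 0 were called by edgeR or DESeq2 and 0 had an unadjusted p below 0.05, and their log2 fold changes lay between -0.90 and 0.43. All 7 calls rest on both MIF_1 libraries: without MIF_1 replicate 1 none of the 7 passed, and without replicate 2 only ENODL1 did, while the direction held in each. In those fits the calls over all tested loci also dropped, to 0.0956% without replicate 1 and 0.254% without replicate 2.

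**Figure D2:**
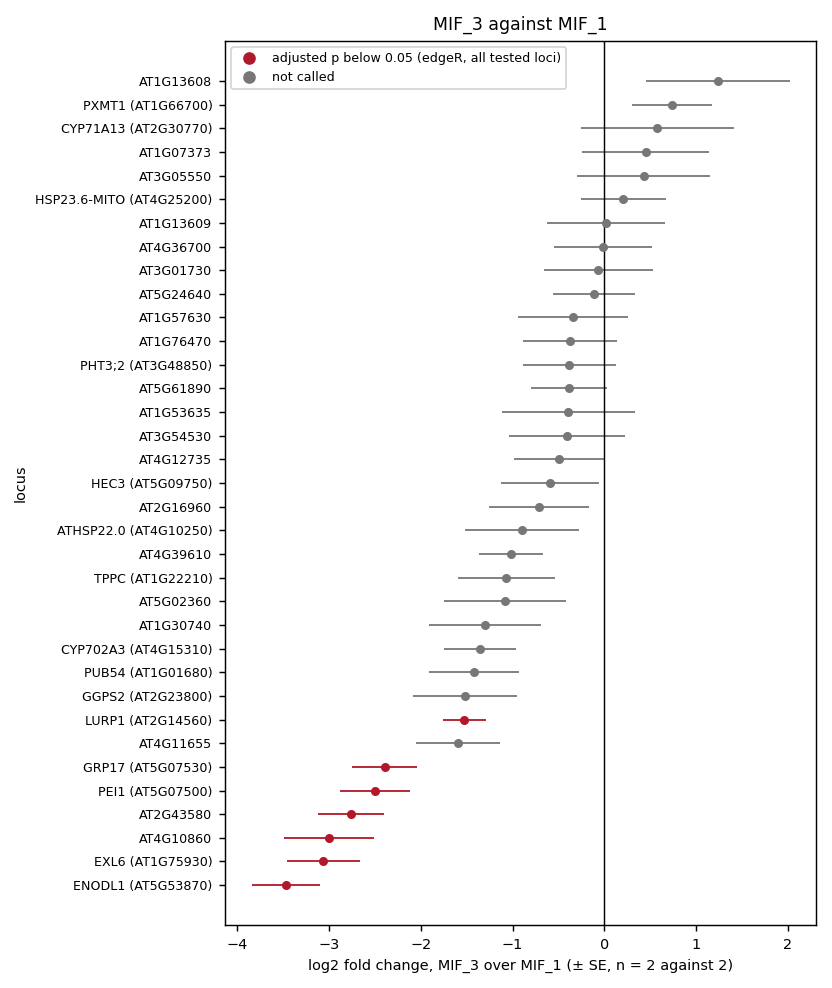
Log2 fold change of MIF_3 over MIF_1 for each of the 35 loci, with its standard error, from the fit over all 6 libraries. The 7 loci in red had an adjusted p below 0.05 over all tested loci and all lie left of 0, from LURP1 at -1.53 to ENODL1 at -3.47.

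The replicates of MIF_3 differed more for these loci than those of MIF_1. The median absolute log2 ratio between replicates was 0.70 in MIF_3 and 0.29 in MIF_1, while tested loci of like count had 0.44 in MIF_3 and 0.32 in MIF_1. A difference over 2-fold between replicates was seen for 10 loci in MIF_3 and 2 in MIF_1. In MIF_3, AT1G07373, AT1G13608, AT1G13609 and AT4G36700 were 8.63, 6.86, 5.41 and 5.42 times higher in replicate 1 than in replicate 2, and CYP71A13 was 12.1 times higher in replicate 2. No other member differed by more than 2.64-fold there, and in MIF_1 the widest difference of any member was 3.36-fold.

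Some genes outside the set were also split between the MIF_3 libraries. The bHLH38, bHLH39, BHLH100 and BHLH101 genes, regulators of the iron-deficiency response, were 5.08 to 7.65 times higher in replicate 1. Over the 16 genes of the iron-deficiency list this ratio ran from 1.04 to 7.65, with a median of 2.65. Of these, bHLH38 had 3192 and 409 counts in MIF_3, 1344 and 1358 in MIF_1, and 8 and 10 in WT. The defensin PDF1.2c ran the other way, 10.1 times higher in replicate 2, with 35 and 347 counts in MIF_3, 61 and 65 in MIF_1, and 1 and 3 in WT. AOX1D, of the mitochondrial stress list, was split in both sets, with 1 and 138 counts in MIF_3, 44 and 4 in MIF_1, and 6 and 0 in WT. For AT1G07373, AT4G36700 and AT4G39610 the call between MIF_3 and MIF_1 depends on 1 library. The log2 fold change of AT1G07373 was -1.81 without MIF_3 replicate 1 (adjusted p = 0.011, edgeR) and 1.29 without replicate 2 (adjusted p = 0.0095, edgeR), against 0.45 ± 0.69 with both. That of AT4G36700 was -1.70 without replicate 1 (adjusted p = 0.0019, edgeR) and 0.74 without replicate 2 (adjusted p = 0.0496, edgeR), against -0.02 ± 0.53 with both. That of AT4G39610 was -1.70 without replicate 1 (adjusted p = 0.024, edgeR), against -1.02 ± 0.35 with both (adjusted p = 0.20, edgeR).

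**Figure D3:**
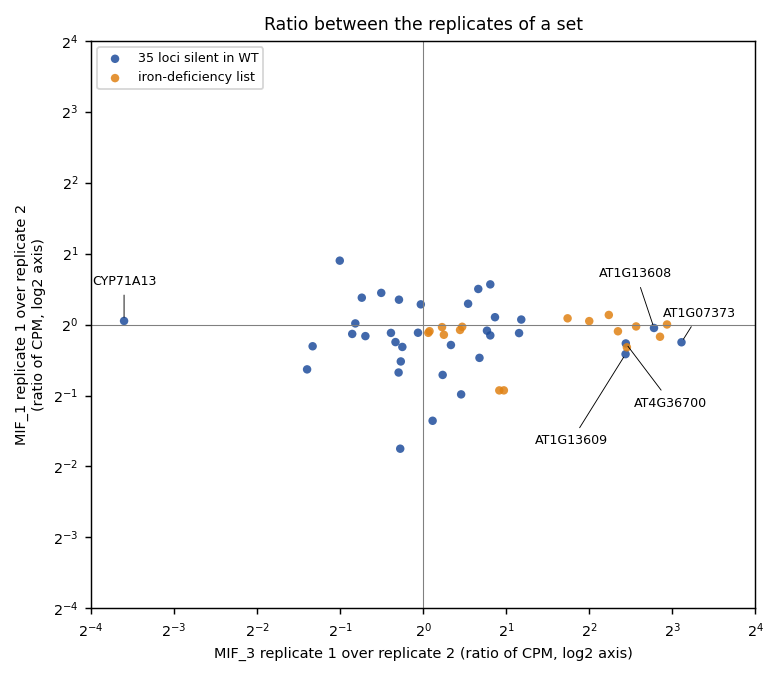
Ratio of replicate 1 to replicate 2 in MIF_3 (horizontal) and in MIF_1 (vertical), from CPM on log2 axes, for the 35 loci (blue) and 16 iron-deficiency genes (orange). Only in MIF_3 do points lie beyond 5-fold: AT1G07373, AT1G13608, AT1G13609, AT4G36700 and several iron genes to the right, CYP71A13 to the left.

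The loci lay on all 5 chromosomes, with 11, 5, 4, 8 and 7 on chromosomes 1 to 5. Only the defensin-like pair was adjacent, and PEI1 and GRP17 were the next closest, 8725 bp apart. The 34 protein-coding members were short, with a median exon length of 1214.5 bp. The median was 1778 bp for tested protein-coding loci and 1552 bp for all protein-coding loci in the count table. A single exon was annotated for 12 of the 34 members (35.3%), against 15.9% of tested and 20.8% of all protein-coding loci. Loci of like level were not compared. CYP71A13 was the 1 member that overlapped another annotated locus. It shares 572 bp with AT2G30766, on the opposite strand, an IRON MAN-type peptide gene of the iron-deficiency response that had 3030 and 743 counts in MIF_3, 1747 and 1708 in MIF_1, and 72 and 110 in WT. The strand setting of the counting is not given in the sources used here, so reads of these overlapping loci cannot be told apart.

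The nearest annotated locus on each side gave 68 neighbours that are not members, 37 of which were tested. In the mean of MIF_3 and MIF_1 against WT, 7 rose (7.76% of all tested loci rose) and 1 fell (10.9% of all tested loci fell), with a median log2 fold change of 0.06. Of the 7, 3 belong to the gene family of the member beside them. CYP702A2, 3869 bp from CYP702A3, rose by 5.55 ± 0.33 on the log2 scale (adjusted p = 8.8e-06, edgeR), with 602 and 419 counts in MIF_3, 1261 and 1578 in MIF_1, and 22 and 5 in WT. On both sides of the chitinase AT2G43580, AT2G43590 rose by 4.06 ± 0.19 and CHI (AT2G43570) by 3.80 ± 0.17 (adjusted p = 3.8e-06 and 3.6e-06, edgeR). AT2G43590 had 3417 and 2284 counts in MIF_3, 5850 and 7388 in MIF_1, and 203 and 184 in WT. The member silent in WT thus lies between relatives that were expressed in WT and rose.

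Reads shared between such relatives could be assigned wrongly. AT2G43580 and AT2G43590 were 76.9% identical over their genomic alignment, with a longest identical run of 36 bp, and CYP702A3 and CYP702A2 were 68.1% identical with a longest run of 13 bp. CYP71A13 and its close relative CYP71A12 (AT2G30750) were 89.1% identical with a longest run of 59 bp, so its count is the least certain of these. CYP71A12 had 53 counts in both MIF_3 libraries, 74 and 115 in MIF_1, and 4 and 6 in WT. The other neighbours that rose were AT2G30766, the IRON MAN-type gene that overlaps CYP71A13 (3.86 ± 0.55, adjusted p = 0.0013, edgeR), AT3G01720, HAM4 and AT5G53880, and AT-HSFB2B, a heat shock factor beside AT4G11655, fell by 1.10 ± 0.22 (adjusted p = 0.0070, edgeR).

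Genes of related pathways, with the members left out, were counted in the mean of MIF_3 and MIF_1 against WT, where 7.76% of all tested loci rose and 10.9% fell. Of 13 defence genes 8 rose and 0 fell, with a median log2 fold change of 3.40. PDF1.2 and PDF1.2b, 2 of the named exclusions, are among the 8 that rose, so this list is not independent of what was seen in these libraries. The salicylate marker PR1 had 39 and 35 counts in MIF_3, 391 and 561 in MIF_1, and 0 and 10 in WT, with both MIF_1 libraries above both MIF_3 libraries as in LURP1 and the chitinase. Of 7 xenobiotic and mitochondrial stress genes 6 rose and 0 fell, with a median of 1.11, and AOX1D was not called. The mitochondrial stress marker AT2G21640 had 268 and 406 counts in MIF_3, 357 and 326 in MIF_1, and 60 and 48 in WT, a rise of 2.23 ± 0.22 (adjusted p = 1.9e-04, edgeR). AOX1A, the main alternative oxidase, rose by 0.39 ± 0.10 (adjusted p = 0.027, edgeR). Of 16 iron-deficiency genes, 5 of them named exclusions, 13 rose and 0 fell, with a median of 2.66. The 5 exclusions are among the 13 that rose, so this list is not independent either.

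Protein families that hold several members were counted in the same contrast, with the members left out. Of 156 other tested cytochrome P450 genes 21 rose (13.5%) and 28 fell (17.9%), and of 1283 other tested transcription factor genes 94 rose (7.33%) and 188 fell (14.7%). Of the 880 other tested loci annotated as hypothetical or of unknown function 52 rose (5.91%) and 100 fell (11.4%). Of 23 other tested defensin and defensin-like genes 7 rose (30.4%) and 3 fell (13.0%), with a median log2 fold change of 0.26. The 7 that rose include the named exclusions PDF1.2 and PDF1.2b, beside TI1, PDF1.3, PDF1.2c, LCR69 and PDF2.5. Among 11 tested genes of triterpene clusters, 1 rose and 1 fell. The 1 that rose was PEN3 itself, with 1711 and 967 counts in MIF_3, 1854 and 1974 in MIF_1, and 3 and 0 in WT, and the 1 that fell was CYP708A2 of the thalianol cluster. Of the loci known to be silenced by DNA methylation, 1 was tested, QQS, and it was not called, with 12 and 1 counts in MIF_3, 8 and 37 in MIF_1, and 13 and 4 in WT.

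Promoters were read from the RefSeq TAIR10.1 assembly as 250 bases before and 50 after each annotated gene start, for the 35 loci and for 27443 protein-coding loci, and searched on both strands. The mitochondrial dysfunction motif was searched in a looser form, CTTGNNNNNCANG, with any base next to last. The published motif has A or C there. This looser form was present in 5 of the 35 windows (14.3%), against 2.14% of all windows. The base next to last is G in EXL6 and T in AT1G57630, so these matches fall outside the published motif. Matches to the published motif alone were not counted over all windows. These 5 windows are shown because they hold the looser form. The capitals mark each match, which reads as the reverse complement where it lies on the other strand.
HSP23.6-MITO (AT4G25200), chr4:12916676-12916975, plus strand: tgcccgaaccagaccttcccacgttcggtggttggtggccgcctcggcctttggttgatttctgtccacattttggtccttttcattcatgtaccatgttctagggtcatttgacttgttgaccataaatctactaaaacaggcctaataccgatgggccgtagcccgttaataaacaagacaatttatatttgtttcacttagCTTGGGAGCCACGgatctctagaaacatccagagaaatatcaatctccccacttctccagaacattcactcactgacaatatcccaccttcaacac
AT4G12735, chr4:7494185-7494484, minus strand: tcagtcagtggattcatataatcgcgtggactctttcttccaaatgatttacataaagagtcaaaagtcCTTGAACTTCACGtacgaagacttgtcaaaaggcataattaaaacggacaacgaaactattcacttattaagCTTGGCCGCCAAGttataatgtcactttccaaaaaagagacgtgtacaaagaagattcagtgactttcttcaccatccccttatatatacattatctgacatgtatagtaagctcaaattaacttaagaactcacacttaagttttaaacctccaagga
AT5G24640, chr5:8436102-8436401, plus strand: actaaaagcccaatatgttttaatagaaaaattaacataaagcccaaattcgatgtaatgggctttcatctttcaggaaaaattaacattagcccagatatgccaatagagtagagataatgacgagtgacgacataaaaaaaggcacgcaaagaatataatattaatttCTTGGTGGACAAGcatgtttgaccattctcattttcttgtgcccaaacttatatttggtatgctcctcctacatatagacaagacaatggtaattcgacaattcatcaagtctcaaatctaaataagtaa
AT1G57630, chr1:21345195-21345494, plus strand: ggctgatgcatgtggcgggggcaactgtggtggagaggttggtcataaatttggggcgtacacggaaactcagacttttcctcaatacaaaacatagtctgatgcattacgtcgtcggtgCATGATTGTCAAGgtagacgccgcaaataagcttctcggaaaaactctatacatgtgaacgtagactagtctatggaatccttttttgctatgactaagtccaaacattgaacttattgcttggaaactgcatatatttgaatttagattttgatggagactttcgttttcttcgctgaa
EXL6 (AT1G75930), chr1:28507822-28508121, plus strand: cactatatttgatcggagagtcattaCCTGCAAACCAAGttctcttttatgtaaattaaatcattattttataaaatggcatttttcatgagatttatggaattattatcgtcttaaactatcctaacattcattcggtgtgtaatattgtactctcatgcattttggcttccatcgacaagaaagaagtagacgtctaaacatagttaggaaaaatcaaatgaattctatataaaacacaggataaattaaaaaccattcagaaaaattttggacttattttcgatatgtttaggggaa
AT4G12735 holds 2 matches, and the other 4 windows hold 1 each. The second match of AT4G12735, 109 bases before the gene start, contains the GCC box of that window. HSP23.6-MITO, AT4G12735, AT5G24640 and AT1G57630 were not called between MIF_3 and MIF_1, with log2 fold changes of 0.21 ± 0.46, -0.50 ± 0.49, -0.12 ± 0.45 and -0.34 ± 0.60 (SE), and EXL6 was among the 7 that differed. A match is a run of letters and does not show that a factor binds there.

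The other motifs were counted the same way. The W-box core TTGAC, the site of WRKY factors, was in 22 windows (62.9%, against 50.5% of all), and AT1G13609 and PHT3;2 held 4 matches each. The GCC box GCCGCC, a site of ethylene response factors, was in 3 windows (8.57%, against 2.57%), those of AT3G05550, AT4G12735 and HSP23.6-MITO. The heat shock element GAANNTTC was in 6 (17.1%, against 11.6%), HSP23.6-MITO among them but not ATHSP22.0. The as-1 core TGACG was in 9 (25.7%, against 23.1%), the DRE core CCGAC in 6 (17.1%, against 15.05%), the ABRE core ACGTGNC in 5 (14.3%, against 10.3%), the TATA box TATAAA in 19 (54.3%, against 52.1%) and the site II element TGGGCC in 2 (5.71%, against 15.5%). Matches of the W-box and as-1 cores can share letters, as can those of the ABRE core and the G-box. The spaced GAL4 site of the inducible system, CGG and CCG with 11 free bases between them, was in 0 of the 35 windows and in 1.34% of all.

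**Figure D4:**
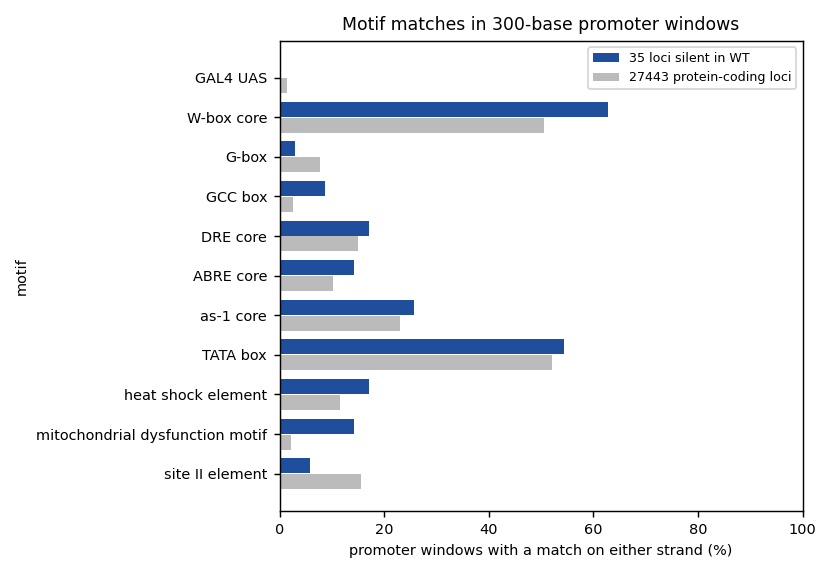
Share of promoter windows with at least 1 match to each motif on either strand, for the 35 loci (blue) and for 27443 protein-coding loci (grey). The row of the mitochondrial dysfunction motif counts its looser form, which was in 14.3% of the members' windows and in 2.14% of all. Some of these matches fall outside the published motif.

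The G-box CACGTG was in 1 of the 35 windows (2.86%, against 7.68% of all), that of the most abundant member. It is shown because it holds 2 copies, in capitals, each of which overlaps a match of the ABRE core.
AT4G36700, chr4:17300318-17300617, minus strand: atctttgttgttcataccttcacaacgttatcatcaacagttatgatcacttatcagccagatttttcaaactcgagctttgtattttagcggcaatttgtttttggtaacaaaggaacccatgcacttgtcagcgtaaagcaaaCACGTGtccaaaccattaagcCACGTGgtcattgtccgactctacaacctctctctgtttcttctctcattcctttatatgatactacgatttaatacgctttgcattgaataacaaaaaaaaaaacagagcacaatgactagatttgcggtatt
HAM4, the locus on the far side of this promoter at 5390 bp, rose by 0.78 ± 0.14 on the log2 scale (adjusted p = 0.0047, edgeR), with 409 and 376 counts in MIF_3, 462 and 502 in MIF_1, and 179 and 195 in WT. Against the fold of AT4G36700 itself, that is a small difference in the same direction.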

How the data were processed

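Poly(A) RNA-seq of whole seedlings was used, 6 libraries in 3 groups assigned from the titles and genotypes. The authors deposited unnormalized whole-number counts of reads for each locus. Per the submitters' processing notes, the tools were fastp, STAR and HTSeq and the build TAIR10. Versions, annotation release, strand setting and the rule for ambiguous reads were not given in the sources used here. Libraries held 18262579 to 24698636 counts. Names, exons and promoters came from RefSeq TAIR10.1, where 32548 of 32834 loci had a record, and printed coordinates are those of that assembly.

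The members, gene lists and roles were chosen with earlier results of these data known. The main test was edgeR 4.0.16 (with limma 3.58.1, R 4.3.3) after filterByExpr with a minimum count of 10 and a minimum total of 15. It used TMM scaling and quasi-likelihood fits to all 6 libraries, 1 coefficient per group and 3 residual degrees of freedom. A locus was called when its adjusted p (Benjamini-Hochberg over 20438 tested loci) was under 0.05. The SE was derived by dividing the log2 fold change, without its sign, by the root of the F statistic. Folds against WT with 1 to 3 counts carry exact 95% conditional binomial intervals. The code was tested on simulated data with known changes.

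Values by library are given for the 12 members of highest mean CPM, all called members, members in a list or family, adjacent members, called neighbours and up to 4 loci on each side of the limits. Further members were named after their values were seen. Alternatives were DESeq2 1.42.0, RLE factors, no or a stricter filter (mean count 50), organelle loci removed, a replicate block, the compared libraries alone, a threshold of 0.01, other limits of the rule, and leaving out each library. Neighbours restricted to counted protein-coding loci were added after seeing the data. A group left with 1 library was given the spread of the others.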

Additional observations from a re-analysis of the deposited data

Results flagged for a closer look

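For 7 of the 35 loci the difference from WT was not of the same size in both transgenic sets, by the test of the difference itself. The log2 fold change of MIF_3 against MIF_1 was -3.47 for ENODL1, -3.06 for EXL6, -3.003 for AT4G10860, -2.76 for the chitinase AT2G43580, -2.50 for PEI1, -2.39 for GRP17 and -1.53 for LURP1. In each, both MIF_1 libraries were above both MIF_3 libraries. No value was flagged for a library far from its group, since groups of 2 cannot be tested for that.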

How the results depend on the processing

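The size of the set follows its limits. It was 22 loci with at most 1 WT count and 65 with at most 6. It was 92 with at least 5 counts in each transgenic library and 16 with at least 20. With counts scaled to the mean library size, 28 of the 35 loci passed and no others. Leaving out a library gave 38 to 136 loci (136 without WT replicate 1, 90 without WT replicate 2, 53 without MIF_3 replicate 2). That can only add loci, because the limits then act on fewer libraries, so all 35 stayed in by construction. In MIF_3 against MIF_1, the 7 lower calls were kept with DESeq2, RLE factors, no filter, organelle loci removed and the compared libraries alone; 5 of 8 tested were called with the stricter filter and 3 at a threshold of 0.01. Leaving out a library gave 0 to 10 lower and 0 to 2 higher calls. Over all loci DESeq2 called 775 against 360, and 687 were called without a filter. The replicate numbers did not pair the samples (correlations of same-numbered deviations 0.036, -0.036 and -0.042); with a replicate block 7 members were again lower, and AT1G07373, AT1G13609, AT2G30770 and AT3G01730, none called, turned to -0.12, -0.32, -0.069 and 0.063.

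Neighbours restricted to the nearest counted protein-coding loci were an alternative added after seeing the data. Of 46 tested, 9 rose and 4 fell in the mean of MIF_3 and MIF_1 against WT (7.76% and 10.9% of all tested loci). Among the 9 was AT1G47400 of the iron-deficiency list, 5888 bp from AT1G07373. It had 1138 and 237 counts in MIF_3, 466 and 429 in MIF_1, and 7 and 20 in WT. List genes called lower ranged from 4 to 7 when a library was left out and were 4 at a threshold of 0.01. Leaving out a library turned the sign of members with values near 0 or split replicates. The log2 ranges were -1.81 to 1.29 for AT1G07373, -0.73 to 2.03 for AT1G13608, -1.66 to 0.77 for AT1G13609, -1.01 to 0.73 for AT1G53635, -1.14 to 0.18 for AT1G57630, -2.12 to 1.46 for CYP71A13, -0.58 to 0.76 for AT3G01730, -0.97 to 0.14 for PHT3;2, -0.21 to 0.53 for HSP23.6-MITO and -1.70 to 0.74 for AT4G36700. The causes were not tested. Depth limits the low members: at 3 WT counts in all, a fold interval spans more than 10-fold.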
